A study of Mus musculus with 52 samples.

Results

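Claudins and their partners were followed at the transcript level in mouse intestinal organoids treated with a retinoid or with a blocker of the retinoid X receptors. The genes described are Cldn1, Cldn2, Cldn3, Cldn4, Cldn7, Cldn8, Cldn15 and Cldn23, with Ocln (occludin) and Tjp1 (tight junction protein 1, ZO-1), chosen by gene symbol as 10 of the 24116 genes in the table. The organoids, self-organising epithelial cultures, came from wild type C57BL/6 mice of 8 weeks, all of them male littermates, with 1 culture from each of 2 mice. They received 10 µM all-trans retinoic acid (atRA), 5 µM of an RXR antagonist (RXRi) or the vehicle DMSO on day 0 and again on day 3, and RNA was taken on days 1, 3, 4 and 5. A DMSO group of day 0 completes 13 groups, each with 2 cultures and RNA purified in duplicate from each culture. Until day 3 every group also had 20% Wnt3a-conditioned medium, 10 µM Y-27632 (a ROCK inhibitor) and 3 µM CHIR99021 (a GSK3 inhibitor) in its medium, and none of these from then on. Whole organoids were lysed after single cells had been seeded, so each value is a mean over all cells of 3 pooled wells, and with 1 culture per mouse the animal and its culture cannot be told apart.

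Tight junctions seal the space between neighbouring epithelial cells near their apical edge. Claudins are membrane proteins that polymerise into the strands of the junction. Some claudins close the paracellular path and others form pores for small ions, so that the set of claudins a cell makes sets how leaky and how selective the epithelium is. Claudin 15 and claudin 2 form channels for cations and are known in the mouse small intestine for the return of sodium to the lumen that nutrient uptake needs. Occludin sits in the same strands, and ZO-1 is the scaffold under the membrane that ties the strands to actin. These are background facts on the proteins, whereas the data are RNA.

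Leaving out a shallow library of the day 1 DMSO group, duplicate 2 of culture 1 with 12443 reads, 51 libraries of 12895667 to 26206030 reads were used (median 19686971). Values are RPKM, reads scaled to the length of the gene and the size of the library, so levels of different genes can be compared. Of 12443 genes tested, 9 were members; Cldn1 did not pass the filter of at least 1 RPKM in at least 4 libraries. Markers of epithelium summed to 2847 to 22351 RPKM per library, while the 8 mesenchymal markers summed to 0.388 to 1.41 RPKM and the 6 endothelial markers to 0.021 to 0.564 RPKM. The duplicates of a culture were averaged, so n = 2 cultures per group throughout. Nothing in the labels gives a further replicate, so p-values measure the spread between the cultures of 2 littermates.

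Cldn15, Cldn3 and Cldn4 lie on chromosome 5. Cldn15 spans bases 136967869 to 136975845 of it, Cldn4 bases 134945123 to 134946934 and Cldn3 bases 134986214 to 134987476 (GRCm38.p6, RefSeq), and 39279 bases separate the neighbours Cldn4 and Cldn3. The promoters of these 3 genes are shown because Cldn15 and Cldn3 fell together under RXRi while Cldn4, next to Cldn3, ended higher. Each run is read 5′ to 3′ on the strand of the gene from RefSeq on GRCm38.p6, from 250 bases before the start to 50 after it, at chr5:136967619-136967918 (plus strand) for Cldn15, chr5:134985964-134986263 (plus strand) for Cldn3 and chr5:134946885-134947184 (minus strand) for Cldn4. Capitals mark matches to the motifs searched.
Cldn15: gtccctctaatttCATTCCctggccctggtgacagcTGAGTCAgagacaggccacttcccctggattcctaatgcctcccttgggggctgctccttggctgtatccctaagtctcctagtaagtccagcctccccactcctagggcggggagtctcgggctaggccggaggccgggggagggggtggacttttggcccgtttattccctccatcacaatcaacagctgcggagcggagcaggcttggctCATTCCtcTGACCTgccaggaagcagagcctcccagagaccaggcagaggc
Cldn3: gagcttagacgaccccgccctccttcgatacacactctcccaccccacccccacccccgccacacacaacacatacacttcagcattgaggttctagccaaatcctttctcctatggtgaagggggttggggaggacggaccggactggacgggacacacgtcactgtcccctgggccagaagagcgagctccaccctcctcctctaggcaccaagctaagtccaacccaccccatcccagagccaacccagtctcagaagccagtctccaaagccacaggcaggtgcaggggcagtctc
Cldn4: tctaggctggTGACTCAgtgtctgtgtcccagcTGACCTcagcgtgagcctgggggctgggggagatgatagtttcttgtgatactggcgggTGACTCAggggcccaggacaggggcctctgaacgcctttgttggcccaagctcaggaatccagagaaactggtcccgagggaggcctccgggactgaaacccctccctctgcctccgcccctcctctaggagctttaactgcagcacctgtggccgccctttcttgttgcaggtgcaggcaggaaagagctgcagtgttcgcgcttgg

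The motifs searched on both strands were AGGTCA (the half-site of many nuclear receptors), its direct repeats with spacers of 1, 2 or 5 bases, CAAAGT (HNF4-like), TTTATG (CDX-like), GGAATG (TEAD-like), TGACTCA (AP-1) and TATAAA. In the Cldn15 window AGGTCA matched on the minus strand from base 8 to base 13 after the start, GGAATG matched at 2 places and TGACTCA at 1. The Cldn4 window held TGACTCA at 2 places and AGGTCA at 1, and the Cldn3 window held no match, which says only that these letters are not in it. No marked matches overlapped. Of 32851 windows of the same length in the RefSeq table, 16.3% held AGGTCA, 14.7% GGAATG and 5.2% TGACTCA. The table had windows for 8 of the 10 members. Over their 10 windows, 5 held AGGTCA and 0 held any of the direct repeats, which 0.0396% of all windows held at a spacer of 1. A match is a description of the letters and not a bound site.

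RXRi organoids had less RNA of 4 claudins and more of the scaffold Tjp1. Averaged over the 4 days, Cldn15, Cldn3, Cldn23 and Cldn7 were lower and Tjp1 was higher than in DMSO, 5 of the 9 members tested. Of all genes tested, 73.0% passed in this comparison, and 5 of 9 members is no larger a share. The median log2 fold change was -0.23 over the members and -0.07 over all genes. In whole organoids fewer cells of a type and less RNA per cell cannot be told apart, and this holds for every value below.

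Cldn15, the cation-pore claudin, had the widest range of all members. On day 1 its libraries held 3.24, 3.85, 4.57 and 4.98 RPKM in RXRi organoids, against 46.3, 41.2 and 43.3 RPKM in DMSO organoids. On day 3 they held 0.87, 0.834, 0.933 and 1.27 RPKM in RXRi organoids, against 100, 106, 97 and 98.6 RPKM in DMSO organoids. On day 5 they held 1.09, 0.656, 0.612 and 0.377 RPKM in RXRi organoids, against 369, 369, 377 and 380 RPKM in DMSO organoids. Every RXRi library lay far under every DMSO library of its day, and the distance widened from day to day: RXRi levels fell between days 1 and 3, while DMSO levels climbed from day 1 on. The log2 fold changes of RPKM + 1 were -3.14 ± 0.15 on day 1, -5.69 ± 0.15 on day 3, -7.17 ± 0.15 on day 4 and -7.81 ± 0.15 on day 5 (SE; limma, adjusted p = 1.4e-10, 9.9e-15, 3.1e-16 and 7.4e-17). The pseudocount of 1 RPKM shortens these differences: with 0.1 RPKM in its place they were -3.40, -6.56, -8.25 and -8.97 for Cldn15 on the same days. On day 5 the Cldn15 values rested on 17 to 28 reads per library in RXRi organoids and on 8995 to 10055 reads in DMSO organoids. The day 5 effect exceeded the day 1 effect by -4.67 ± 0.21 (limma interaction, adjusted p = 4.2e-11), among the 41.3% of genes whose effect of RXRi changed between these days.

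**Figure D1:**
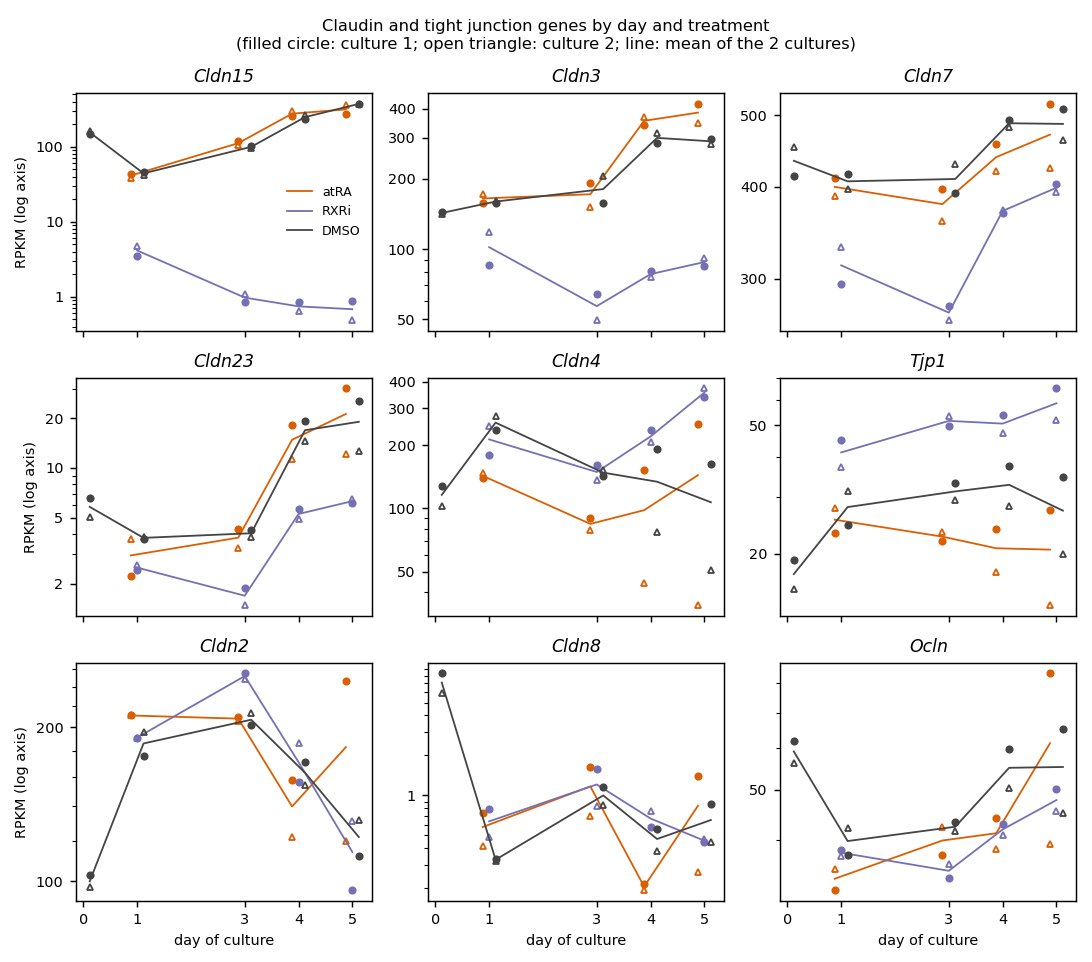
RPKM of the 9 members that passed the filter (log axis, each panel with its own range) against day of culture, for atRA, RXRi and DMSO; a filled circle is culture 1, an open triangle culture 2 and a line joins the means of the 2 cultures. Cldn15 in RXRi organoids ends at a mean of 0.684 RPKM, against 316 RPKM in atRA and 374 RPKM in DMSO organoids, and the cultures of Cldn4 lie far apart on days 4 and 5 in atRA and DMSO.

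Cldn3, a sealing claudin of the intestinal epithelium, fell in RXRi organoids on every day. Its libraries held 80.9, 89.9, 127 and 111 RPKM on day 1 in RXRi organoids, against 158, 145 and 177 RPKM in DMSO organoids. On day 5 they held 85.1, 83.8, 88.9 and 94.7 RPKM in RXRi organoids, against 251, 344, 280 and 285 RPKM in DMSO organoids. The groups did not overlap on either day, and Cldn3 in RXRi organoids stayed under its day 0 level while in DMSO it rose above it. The log2 fold changes were -0.66 ± 0.16, -1.64 ± 0.16, -1.94 ± 0.16 and -1.70 ± 0.16 on days 1, 3, 4 and 5 (SE; limma, adjusted p = 0.00806, 4.8e-07, 2.4e-08 and 8.9e-08). The day 1 call ended when culture 1 of day 1 RXRi was left out, with a log2 fold change of -0.42. The effect of RXRi on Cldn3 differed between days 5 and 1 by -1.04 ± 0.23 (limma, adjusted p = 0.00164).

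Cldn7 was the most abundant claudin and fell by a small amount. This claudin, known from the lateral membrane of gut epithelium, held 388, 418, 393 and 395 RPKM in day 5 RXRi organoids, against 517, 504, 459 and 467 RPKM in DMSO organoids. The log2 fold changes were -0.38 ± 0.10, -0.60 ± 0.10, -0.40 ± 0.10 and -0.29 ± 0.10 on days 1, 3, 4 and 5, each past the threshold (SE; limma, adjusted p = 0.0105, 1.0e-04, 0.00217 and 0.0166). The RXRi and DMSO libraries did not overlap on any of the 4 days, and the day 3 mean of 270 ± 8.26 RPKM (SD) in RXRi organoids was the lowest of the 13 groups. The day 1 call ended with the shallow library kept and without culture 1 of RXRi or of DMSO, and the day 5 call ended without culture 2 of RXRi or culture 1 of DMSO.

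Cldn23, a low-abundance claudin known from differentiated surface cells of the gut, held 6.39, 5.85, 6.03 and 6.92 RPKM in day 5 RXRi organoids, against 24.3, 26.4, 11.9 and 13.4 RPKM in DMSO organoids. Every RXRi library was lower, and within DMSO both libraries of culture 2 lay under those of culture 1. The log2 fold changes were -0.45 ± 0.34 on day 1, which did not pass, then -0.91 ± 0.34, -1.51 ± 0.34 and -1.38 ± 0.34 on days 3, 4 and 5 (SE; limma, adjusted p = 0.384, 0.0378, 0.00103 and 0.00181). The day 3 call ended when any of the 4 day 3 cultures of RXRi or DMSO was left out, with the shallow library kept and without the filter.

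Tjp1, which encodes the scaffold ZO-1, went the other way. Its libraries held 65, 65, 53.9 and 50.4 RPKM in day 5 RXRi organoids, against 37.1, 31.8, 19.2 and 20.6 RPKM in DMSO organoids. All 4 RXRi libraries were higher than all DMSO libraries, and Tjp1 was already at 44.3, 46, 36.2 and 38.1 RPKM in day 1 RXRi organoids, against 24.5, 32.9 and 29.8 RPKM in DMSO organoids. The log2 fold changes were 0.55 ± 0.27, 0.71 ± 0.27, 0.62 ± 0.27 and 1.12 ± 0.27 on days 1, 3, 4 and 5 (SE; limma, adjusted p = 0.17, 0.0414, 0.0561 and 0.00156), so days 3 and 5 passed. With culture as a replicate block the day 4 difference of Tjp1 also passed (0.62, limma, adjusted p = 0.0298), and the day 3 call ended in the same settings as that of Cldn23. Averaged over days Tjp1 was higher by 0.75 ± 0.13 (SE; limma, adjusted p = 8.6e-05), a call that held in each of the 26 fits without 1 culture.

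Cldn4, a sealing claudin of many epithelia, differed from DMSO late. Its day 5 libraries held 343, 336, 371 and 373 RPKM in RXRi organoids, against 168, 157, 46.5 and 55.4 RPKM in DMSO organoids. The groups did not overlap, and DMSO culture 1 lay well above DMSO culture 2 while the RXRi cultures were close. The log2 fold change was 1.95 ± 0.71 on day 5 (SE; limma, adjusted p = 0.0232), and -0.27, 0.01 and 0.85 on days 1, 3 and 4 did not pass. Within culture 1 the day 5 difference was 1.06 and within culture 2 it was 2.85. The call ended without either RXRi culture of day 5 or without culture 2 of day 5 DMSO, with values of 1.13 to 2.78 over the fits without 1 culture, and the change of the effect between days 5 and 1 did not pass (2.23 ± 1.00, limma, adjusted p = 0.0854).

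The other members did not pass on any day against DMSO. Cldn2, the second cation-pore claudin and a crypt protein, held 103, 89.4, 130 and 132 RPKM in day 5 RXRi organoids, against 115, 109, 129 and 135 RPKM in DMSO organoids, and these overlap. Ocln held 51.4, 49, 44.7 and 46.2 RPKM in day 5 RXRi organoids, against 68.3, 62.4, 44.7 and 45.6 RPKM in DMSO organoids. Over the mean of the days the log2 fold changes were 0.07 ± 0.11 for Cldn2, 0.11 ± 0.13 for Cldn8 and -0.23 ± 0.11 for Ocln (SE; limma, adjusted p = 0.592, 0.467 and 0.0821). The share of genes that passed was 20.4% on day 1, 43.9% on day 3, 59.0% on day 4 and 63.8% on day 5, beside 3, 5, 4 and 6 of the 9 members.

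**Figure D2:**
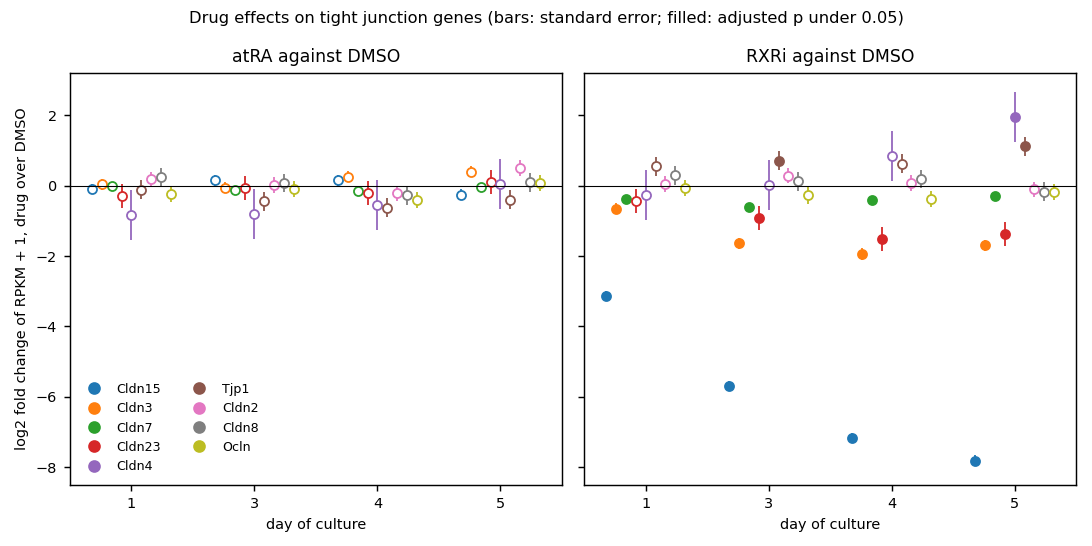
Log2 fold change of RPKM + 1 of each member on days 1, 3, 4 and 5, for atRA against DMSO (left) and RXRi against DMSO (right); bars are standard errors and filled points passed an adjusted p of 0.05. Every point for atRA is open and lies within 1 log2 unit of 0, while Cldn15 under RXRi descends to -7.81 on day 5.

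Differences from DMSO with atRA did not pass on any single day, and the largest were those of Cldn4 on days 1 and 3. None of the 9 passed on day 1, 3, 4 or 5, where 3.46%, 8.68%, 10.9% and 5.03% of all genes did; before adjustment 0, 0, 1 and 2 members had p under 0.05 in limma. Cldn15 on day 5 held 270, 273, 359 and 361 RPKM in atRA organoids, against 369, 369, 377 and 380 RPKM in DMSO organoids, a log2 fold change of -0.26 ± 0.15 (SE; limma, adjusted p = 0.394). All its atRA libraries were lower, those of culture 2 only slightly. Cldn3 on day 5 held 437, 405, 306 and 391 RPKM in atRA organoids, against 251, 344, 280 and 285 RPKM in DMSO organoids, with overlap between the groups (0.40 ± 0.16, limma, adjusted p = 0.205). Cldn4 held 139, 138, 153 and 141 RPKM in day 1 atRA organoids, against 237, 253 and 297 RPKM in DMSO organoids. On day 3 it held 86.8, 93.3, 82.3 and 75.2 RPKM in atRA organoids, against 123, 163, 146 and 158 RPKM in DMSO organoids. Every atRA library of Cldn4 was lower on both days (-0.83 ± 0.71 and -0.80 ± 0.71, limma, adjusted p = 0.87 and 0.629). This SE is pooled over all groups, also those where the cultures of Cldn4 lay apart.

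Averaged over the 4 days, Tjp1 alone passed with atRA, and it was lower by the log2 fold change of -0.40 ± 0.13 (SE; limma, adjusted p = 0.0404), where 22.9% of all genes passed. On day 4 its libraries held 23.4, 24.5, 17.3 and 17.8 RPKM in atRA organoids, against 39.8, 34.9, 28.5 and 27.7 RPKM in DMSO organoids, with every atRA library lower. Within each culture and on each day the difference was below 0, from -0.65 to -0.08. The Tjp1 call is weak: it ended without the filter on low values and with median-of-ratios scaling (adjusted p = 0.0673 and 0.0693). It also ended in 14 of the 26 fits without 1 culture, namely those without any day 3 culture, a day 4 RXRi culture, culture 1 of day 1 atRA, day 4 DMSO or day 5 DMSO, or culture 2 of day 1 DMSO, day 4 atRA or day 5 atRA. Of the change of the atRA effect between days 5 and 1, 0 members passed in limma and 0 had an unadjusted p under 0.05, where 1.15% of all genes passed.

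Between the drugs, 6 of the members differed. Over the mean of the days, atRA organoids had more Cldn15 (5.94 ± 0.07), Cldn3 (1.64 ± 0.08), Cldn23 (0.94 ± 0.17) and Cldn7 (0.33 ± 0.05) than RXRi organoids, and less Cldn4 (-1.17 ± 0.35) and Tjp1 (-1.15 ± 0.13), as log2 fold changes ± SE (limma, adjusted p = 3.8e-20, 5.5e-12, 7.9e-05, 9.7e-06, 0.00667 and 6.1e-07). These 6 of 9 members stand where 75.0% of all genes passed. The 6 calls held in each of the 26 fits without 1 culture. On day 5, where 66.8% of all genes passed, Cldn2 was the seventh member to pass, with 240, 253, 115 and 126 RPKM in atRA organoids, against 103, 89.4, 130 and 132 RPKM in RXRi organoids. Only culture 1 of atRA was higher, and the Cldn2 call (0.61 ± 0.22, limma, adjusted p = 0.0235) ended without it or without culture 1 of RXRi. On the same day Cldn4 (-1.91 ± 0.71, limma, adjusted p = 0.025) lost its call without culture 2 of atRA or either RXRi culture, and Cldn7 (0.23 ± 0.10, limma, adjusted p = 0.0447) lost it in 13 of the 26 fits, those without a culture of day 1 atRA or DMSO, of RXRi on day 3, 4 or 5, of day 4 DMSO, or without culture 1 of day 5 atRA. With culture as a replicate block Tjp1 on day 1 (-0.67), Cldn23 on day 3 (0.83) and Cldn8 on day 4 (-0.47) passed as well (limma, adjusted p = 0.0425, 0.0283 and 0.0434). By day the members passing were 3 of 9 on day 1, 4 on day 3 and 5 on day 4, where 25.8%, 47.4% and 60.3% of all genes passed.

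In the vehicle the members followed separate courses. Group means of Cldn15 on days 0, 1, 3, 4 and 5 were 156 ± 10.3, 44.3 ± 2.89, 100 ± 3.79, 249 ± 18.3 and 374 ± 6.71 RPKM (SD, n = 2 cultures). Cldn15 thus fell after seeding and passed its day 0 level by day 4, and each step passed the test. The log2 fold changes of Cldn15 were -1.80 ± 0.15 for day 1 against day 0, 1.17 ± 0.15 for day 3 against day 1, 1.30 ± 0.15 for day 4 against day 3 and 0.59 ± 0.15 for day 5 against day 4 (SE; limma, adjusted p = 2.7e-08, 2.8e-05, 2.3e-06 and 0.034). The last of these is not stable: it ended with a pseudocount of 0.1, without the filter and with the shallow library kept (limma, adjusted p = 0.117, 0.0525 and 0.831), and without either culture of day 4 or culture 1 of day 5. With the shallow library kept, the Cldn15 difference of day 3 against day 1 shrank to 0.49 (limma, adjusted p = 0.211), since that library held 304 RPKM of Cldn15 on 7 reads.

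Cldn8 and Cldn2 changed on the first day. Cldn8, a claudin of tight epithelia such as the distal colon and the renal collecting duct, held 0.334, 0.366 and 0.278 RPKM on day 1, against 8.11, 8.46, 6.11 and 5.64 RPKM on day 0. The day 1 values of Cldn8 rest on 11 to 16 reads and lay far under every day 0 value, a log2 fold change of RPKM + 1 of -2.59 ± 0.26 (SE; limma, adjusted p = 3.1e-07), which a pseudocount of 0.1 RPKM put at -4.05. It was still lower on day 5 (-2.29 ± 0.26, limma, adjusted p = 1.0e-06). Cldn2 held 176, 195 and 197 RPKM on day 1, against 103, 102, 97.1 and 97.5 RPKM on day 0, with no overlap (0.89 ± 0.22, limma, adjusted p = 0.00258). Ocln fell by 0.56 ± 0.23 and Tjp1 rose by 0.66 ± 0.27 on the same scale (limma, adjusted p = 0.0428 each), making 5 of 9 members where 61.2% of all genes passed. The Ocln call ended with the shallow library kept, without the filter and with scaling, and in 16 of 26 fits: those without a culture of day 0 or day 1, of RXRi on day 3, 4 or 5, or of day 3 DMSO. The Tjp1 call ended without the filter and in 7 of 26 fits, those without either day 0 culture, culture 2 of day 1 DMSO, or a culture of RXRi on day 3 or 4.

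Between day 3, when the Wnt and small-molecule additions ended, and day 4, Cldn23, Cldn15, Cldn3 and Cldn7 rose in DMSO organoids, and time and medium cannot be told apart there. Cldn23 held 17.3, 21.3, 14.2 and 14.8 RPKM on day 4, against 3.79, 4.65, 3.91 and 3.76 RPKM on day 3, and the days did not overlap (1.82 ± 0.34, limma, adjusted p = 2.5e-04). Cldn3 held 261, 310, 320 and 308 RPKM on day 4, against 132, 181, 205 and 206 RPKM on day 3, again with no overlap (0.74 ± 0.16, limma, adjusted p = 0.00105). The rise of Cldn7 was small (0.25 ± 0.10, limma, adjusted p = 0.0384), and its call ended with the shallow library kept and without culture 1 of day 3 or either culture of day 4. These 4 of 9 members stand beside 54.9% of all genes. The 1 member that passed for day 3 against day 1 stands beside 12.7% of all genes, and the 1 for day 5 against day 4 beside 3.44%.

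Against day 0, day 5 DMSO organoids had more Cldn23 (1.49 ± 0.34), Cldn15 (1.25 ± 0.15) and Cldn3 (1.01 ± 0.16) and less Cldn8, 4 of 9 members where 69.8% of all genes passed (log2 fold changes ± SE; limma, adjusted p = 9.5e-04, 1.4e-06, 4.2e-05 and 1.0e-06). RPKM moves with the few most abundant genes, and here the median of all genes lay at -0.31 before and at 0.02 after median-of-ratios scaling. Relative to that shift, Cldn7 (0.55), Tjp1 (0.94) and Cldn2 (0.66) were higher as well (limma after scaling, adjusted p = 9.6e-05, 0.00466 and 0.00948), and 7 members passed. With culture as a replicate block Tjp1 passed without scaling (0.58, limma, adjusted p = 0.036). The next largest shift of the median of all genes, -0.18, was that of atRA organoids on day 4 against day 3.

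In atRA organoids the steps that passed were Cldn15 on day 3 against day 1 (1.42 ± 0.15, limma, adjusted p = 3.1e-06; 1 of 9 members, 18.2% of all genes) and 5 members on day 4 against day 3, where 57.4% of all genes passed. Cldn23 (1.69 ± 0.34), Cldn15 (1.30 ± 0.15) and Cldn3 (1.05 ± 0.16) rose on day 4 and Cldn2 (-0.58 ± 0.22) and Cldn8 (-0.81 ± 0.26) fell (limma, adjusted p = 4.3e-04, 2.0e-06, 4.4e-05, 0.035 and 0.0129). Relative to the shift of all genes, Cldn2 fell by 0.28 and did not pass (limma, adjusted p = 0.257), while Cldn7 rose by 0.51 (limma, adjusted p = 2.3e-04). The Cldn2 call also ended with the shallow library kept, without the filter and without either culture of day 3 or culture 2 of day 4, and the Cldn8 call ended without culture 1 of day 3 or culture 2 of day 4. On day 5 against day 4, 0 members passed in atRA organoids and 0 had an unadjusted p under 0.05 (limma), where 0.627% of all genes passed.

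In RXRi organoids Cldn15 (-1.38 ± 0.15) and Cldn3 (-0.82 ± 0.16) went on falling on day 3 against day 1, 2 of 9 members where 21.4% of all genes passed (limma, adjusted p = 2.2e-06 and 0.00151). On day 4 against day 3, Cldn23 (1.22 ± 0.34), Cldn7 (0.46 ± 0.10) and Cldn3 (0.45 ± 0.16) rose there too, 3 of 9 members where 44.1% of all genes passed (limma, adjusted p = 0.00753, 0.00121 and 0.0348). Cldn15 (-0.18 ± 0.15) and Cldn2 (-0.57 ± 0.22) did not pass (limma, adjusted p = 0.332 and 0.05). The difference of Cldn2 lay at the threshold and passed with a pseudocount of 0.1. The Cldn23 call ended with the shallow library kept and without culture 2 of day 3 or culture 1 of day 4, and the Cldn3 call ended with that library kept, without the filter and without culture 2 of day 3 or either culture of day 4. On day 5 against day 4, 0 members passed and 1 (Cldn2) had an unadjusted p under 0.05 (limma), where 0.386% of all genes passed.

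Over all 13 groups the span between the highest and the lowest group mean was 546-fold for Cldn15 (lowest in day 5 RXRi, highest in day 5 DMSO), 34.4-fold for Cldn8 and 12.6-fold for Cldn23. It was 6.74-fold for Cldn3, 4.22-fold for Cldn4, 3.39-fold for Tjp1, 2.52-fold for Cldn2, 1.82-fold for Ocln and 1.81-fold for Cldn7. Tjp1 held its 4 highest means in the 4 RXRi groups and its lowest, 17.3 ± 2.55 RPKM (SD), on day 0. Cldn15 held its 4 lowest means there, and the 2 cultures of neighbouring groups in its order overlapped in 5 of 12 cases, against 11 of 12 for Tjp1 and 10 of 12 for Cldn7. Cldn1, which gives skin its barrier, stayed between 0 and 0.21 RPKM, at 0 to 10 reads per library, and is not described further.

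The make-up of the claudin transcripts shifted with these changes. Of the summed RPKM of the 8 claudins on day 5, Cldn15 held 21.7 ± 8.57% in atRA organoids and 0.0717 ± 0.0313% in RXRi organoids, against 26.8 ± 2.6% in DMSO organoids (SD, n = 2 cultures). Cldn4 held 8.6 ± 8.37% in atRA and 36.9 ± 0.586% in RXRi organoids, against 7.43 ± 5.04% in DMSO organoids. Cldn3 held 25.5 ± 1.87% in atRA and 9.14 ± 0.0999% in RXRi organoids, against 20.8 ± 0.905% in DMSO organoids. Cldn7 had the largest share of the 8 in each of the 13 groups, from 31.2% to 45.1%. The sum itself was 1521 ± 313 RPKM in day 5 atRA and 964 ± 46.8 RPKM in day 5 RXRi organoids, against 1399 ± 111 RPKM in DMSO organoids. These shares were not tested.

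**Figure D3:**
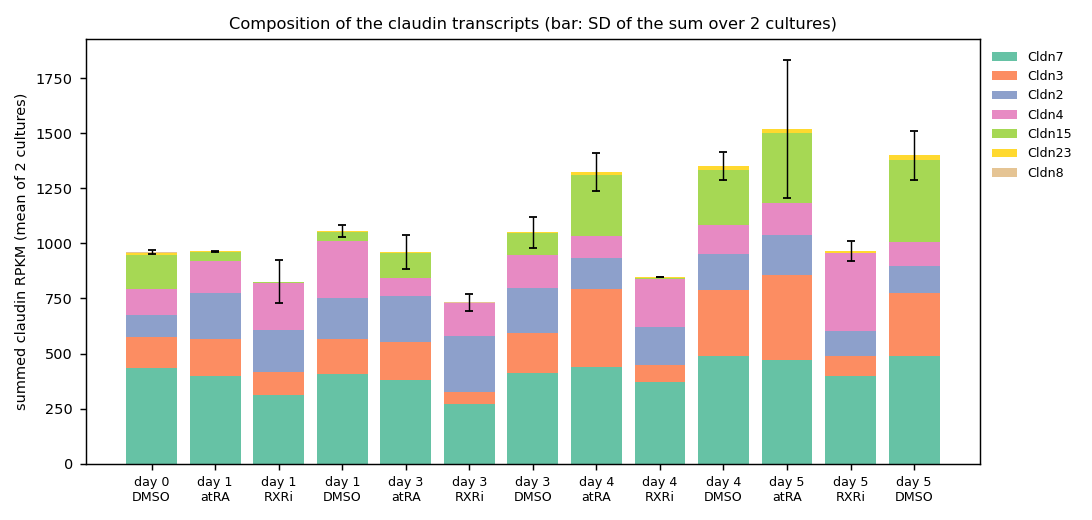
Summed RPKM of the claudins in each group (mean of 2 cultures, stacked by gene; the bar is the SD of the sum), by day and treatment. In RXRi organoids the Cldn15 layer is too thin to see, and on day 5 Cldn4 makes up 36.9% of the sum there, against 7.43% in DMSO.

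On days 4 and 5 the 2 cultures lay apart in atRA and DMSO organoids for several members. Cldn4 on day 5 held 244 and 262 RPKM in culture 1 of atRA and 29.3 and 40.2 RPKM in its culture 2, and 168 and 157 RPKM in culture 1 of DMSO and 46.5 and 55.4 RPKM in its culture 2. In these 4 late groups culture 1 was higher in 4 of 4 for Cldn4 (by 1.30 to 2.84 log2 units), Cldn23 (0.38 to 1.24), Ocln (0.19 to 1.06), Tjp1 (0.40 to 0.93), Cldn8 (0.03 to 0.93) and Cldn7 (0.03 to 0.30), and lower in 4 of 4 for Cldn15 (-0.41 to -0.04). Cldn2 was higher in culture 1 in 3 of these 4 groups and Cldn3 in 2. In the other 9 groups the difference of Cldn4 stayed between -0.45 and 0.31 log2 units. There it ran from -0.54 to 0.33 for Cldn23, -0.17 to 0.14 for Ocln and -0.34 to 0.31 for Tjp1. Cldn8 was higher in culture 1 in 7 of these 9 groups as well (-0.16 to 0.64), and Cldn7 in 5 (-0.17 to 0.14). For Cldn15 the differences there ran from -0.35 to 0.32. Single cultures therefore decide calls for day 5 atRA. Without its culture 2, Cldn2 (1.01) and Ocln (0.61) would pass as higher than in DMSO, and without its culture 1, Tjp1 (-0.87) would pass as lower.

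**Figure D4:**
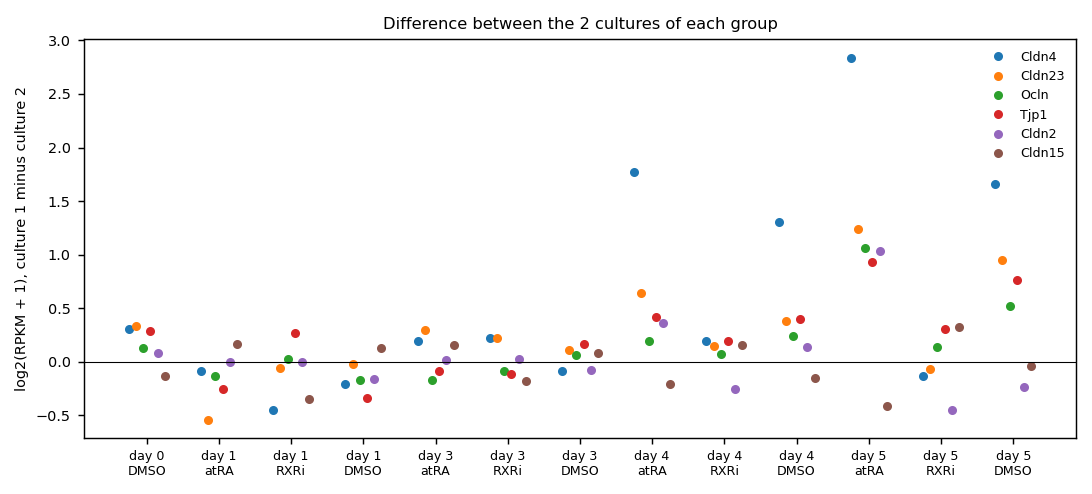
Difference between culture 1 and culture 2 in log2(RPKM + 1) for 6 members in each of the 13 groups. The points of Cldn4 rise to 2.84 in day 5 atRA and lie between -0.45 and 0.31 outside the day 4 and day 5 groups of atRA and DMSO.

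Among tested genes other than the members, those with the course most like that of Cldn15 over the 13 group means were Clrn3, Unc5cl and Cd302 (Pearson r = 0.995, 0.995 and 0.994). For Tjp1 they were Myof, Cysrt1 and Cav2 (0.993, 0.990 and 0.989), for Cldn3 Tstd1, Tm4sf5 and Cdhr5 (0.967, 0.965 and 0.963), and for Cldn4 Nfkb2, Gm4262 and Cxcl1 (0.947, 0.947 and 0.944). For Cldn7 they were Galnt6, Mgat3 and Eps8l3 (0.948, 0.944 and 0.916), for Cldn23 Gm1123, Rnf114 and Mir147 (0.980, 0.963 and 0.963), and for Ocln they included Heca and Marf1 (0.937 and 0.932). Cldn2 was followed most closely by Coq3 (0.941) and Cldn8 by Fbxo7 (0.976). Over the 26 cultures these r were lower. They were 0.816, 0.778 and 0.717 for the genes named for Cldn4, and 0.994, 0.994 and 0.992 for those named for Cldn15. Among the members, over the 13 group means, Cldn15 and Cldn3 had an r of 0.92, Tjp1 and Cldn4 of 0.75, and Tjp1 and Cldn15 of -0.88. The 13 points share days, medium and the same cultures, so these values describe likeness and carry no test.

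Other tight junction genes, from a list of the proteins around the claudins, were tested in the same way. Of 27 other tight junction genes tested, 16 were higher and 4 lower in RXRi than in DMSO over the mean of the days, with a median log2 fold change of 0.30, against -0.07 over all genes, of which 30.1% were higher and 42.8% lower. Ildr1, a protein of the corners where 3 cells meet, held 129 ± 3.51 RPKM in day 5 RXRi organoids, against 13.1 ± 10.1 RPKM in DMSO organoids (SD, n = 2 cultures). Over the mean of the days the log2 fold changes were 2.33 ± 0.22 for Ildr1, 1.84 ± 0.14 for Cgnl1 (paracingulin), 1.80 ± 0.07 for Amotl1 (angiomotin-like) and 1.12 ± 0.15 for Pard6b (a polarity protein; SE; limma, adjusted p = 5.7e-08, 3.0e-09, 2.2e-13 and 4.7e-06). With atRA 1 was higher and 6 were lower, where 7.98% and 15.0% of all genes were, led by Cgnl1 (-0.83 ± 0.14) and Amotl1 (-0.43 ± 0.07; limma, adjusted p = 3.1e-04 and 1.8e-04). On day 1 against day 0 in DMSO, 8 were higher and 5 lower, where 25.6% and 35.6% of all genes were, among them Ildr1 (2.68 ± 0.44), Ybx3 (1.01 ± 0.10) and Magi1 (-1.02 ± 0.11; limma, adjusted p = 7.0e-05, 2.3e-07 and 7.8e-07).

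Partners that bind claudins or govern their turnover were listed too. Of 9 tested, 3 were higher and 4 lower with RXRi over the mean of the days, shares close to the 30.1% and 42.8% of all genes. Epcam, which binds claudin 7 and holds it at the membrane, fell to 272 ± 14.5 RPKM in day 5 RXRi organoids, against 653 ± 71.9 RPKM in DMSO organoids (SD, n = 2 cultures). Its log2 fold change over the mean of the days was -0.92 ± 0.05, beside -1.03 ± 0.04 for the ubiquitin ligase Lnx1 (SE; limma, adjusted p = 5.2e-11 and 8.5e-13). Of 16 adherens junction and desmosome genes, 9 were higher and 2 lower with RXRi, where 30.1% of all genes were higher and 42.8% lower, and 0 were higher and 7 lower with atRA, where 7.98% were higher and 15.0% lower. Perp (0.71 ± 0.07), Pkp3 (0.69 ± 0.05) and Dsp (0.65 ± 0.06), all of desmosomes, rose with RXRi and Nectin3 (-0.76 ± 0.06) fell (limma, adjusted p = 6.4e-08, 1.5e-09, 4.5e-08 and 5.4e-09). Of 17 further claudin genes listed, 16 were in the table and 2, Cldn12 and the claudin-like Cldnd1, passed the filter, of which Cldnd1 rose with RXRi (0.41 ± 0.06, limma, adjusted p = 3.2e-06).

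Markers of cell types also differed between treatments and days. The 15 enterocyte markers summed per library to 24903 to 44419 RPKM in day 5 atRA and 99.2 to 150 RPKM in day 5 RXRi organoids, against 16021 to 20898 RPKM in DMSO organoids, and all 15 were lower with RXRi over the mean of the days. On days 1 and 3, where Cldn15 did not pass between atRA and DMSO, the enterocyte sums were 2832 to 4084 and 8548 to 9430 RPKM in atRA organoids, against 448 to 563 and 374 to 459 RPKM in DMSO organoids. On day 4, where Cldn15 did not pass either, the sums were 31112 to 33768 RPKM in atRA organoids, against 5711 to 6415 RPKM in DMSO organoids. By gene, 3 of the 15 were higher with atRA on day 1, 12 on day 3 and 11 on day 4. On day 5, 2 were higher and 1 lower. Of all genes 3.46%, 8.68%, 10.9% and 5.03% passed on days 1, 3, 4 and 5. The median log2 fold changes of the 15 were 0.14, 1.92, 0.97 and -0.13, and 12 of 15 were not called on day 1 or on day 5. The fetal-like and regeneration markers summed to 155 to 783 RPKM in day 5 atRA and 13294 to 14263 RPKM in day 5 RXRi organoids, against 660 to 1437 RPKM in DMSO organoids, and those of stratified epithelium to 63.2 to 366 RPKM in atRA and 1355 to 1637 RPKM in RXRi organoids, against 53.1 to 154 RPKM in DMSO organoids. Of these lists 10 of 10 and 7 of 8 tested genes were higher with RXRi on day 5, where 28.7% of all genes were higher and 35.1% lower. A marker could enter the test through RXRi libraries alone. Of the 12 stratified markers, 9 were under 1 RPKM throughout day 5 DMSO and 5 throughout day 5 RXRi. The 7 of 8 may thus partly reflect the filter. No enterocyte marker was at 0 in every library of a group, though 8 of 15 were under 1 RPKM throughout day 5 RXRi; of the 12 stratified markers 4 were at 0 throughout day 5 atRA and 1 throughout day 5 RXRi, against 2 throughout day 5 DMSO. On day 1 in DMSO, where Cldn15 was low, the enterocyte sums were 448 to 563 RPKM, against 1670 to 2070 RPKM on day 0, and the fetal-like sums 2845 to 3195 RPKM, against 64.3 to 102 RPKM on day 0. The 8 Paneth cell markers summed to 6136 to 9238 RPKM in day 5 atRA and 13.4 to 23.4 RPKM in day 5 RXRi organoids, against 3986 to 5787 RPKM in DMSO organoids, and all 8 were lower with RXRi on day 5. The goblet cell markers summed to 4156 to 6548 RPKM in atRA and 675 to 1120 RPKM in RXRi organoids, against 3093 to 3256 RPKM in DMSO organoids (8 of 8 lower with RXRi). The enteroendocrine sums were 309 to 776 RPKM in atRA and 94.6 to 110 RPKM in RXRi organoids, against 243 to 299 RPKM in DMSO organoids (8 of 8 lower with RXRi), and of 10 stem cell markers 8 were lower and 2 higher with RXRi. Of 3 tuft cell markers tested, 1 was higher and 2 were lower with RXRi. The tuft cell sums were 32.2 to 36.6 RPKM in day 5 RXRi organoids, against 1.35 to 1.93 RPKM in DMSO organoids. In day 5 atRA organoids they were 0.288 to 0.65 RPKM. Of the 5 tuft cell markers in the table, 4 were under 1 RPKM in every library of day 5 RXRi. The immune markers summed to 1.37 to 1.86 RPKM in day 5 RXRi and 24.8 to 36.6 RPKM in DMSO organoids, with 4 of 7 under 1 RPKM in every library of the series. The part of these cell type differences in the claudin results was not tested.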

How the data were processed

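RNA of 52 libraries (13 groups, 2 cultures each, RNA in duplicate) was sequenced. The authors deposited 1 table of RPKM per gene; bcl2fastq 2.17, STAR 2.5.2b and mm10 stand in the submitters' processing notes. How reads were assigned to genes, with which annotation and whether by strand, is not given in the sources used here. Reads of a gene and of an overlapping or antisense neighbour therefore cannot be told apart. RPKM were mapped to samples by column name, with 0 columns left unmapped. Whole reads were recovered from the RPKM of all 19708 genes above 0 (tolerance 0.001 read). They served only to state depth and to compare duplicates with cultures by chi-square.

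Duplicates of a culture differed less (chi-square per degree of freedom 1.98 to 15.1) than cultures of a group (5.21 to 107) and were averaged as log2(RPKM + 1). A fold change on this scale understates changes of low genes. The test was limma 3.58.1 in R 4.3.3 (trend, robust; a mean for each of 13 groups over 26 culture means; two-sided; Benjamini-Hochberg within each of 28 comparisons; threshold 0.05) on the 12443 genes that reached 1 RPKM in 4 or more libraries (11673 did not), the shallow library left out. Tests were checked on simulated data that had the same spread between cultures for every gene and group. That check does not cover genes whose cultures differ more in some groups than in others.

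Cultures with 1 number came from the same mouse, so the numbers pair the groups; over 78 pairs of groups the deviations of same-numbered cultures had a median r of 0.149 (-0.317 to 0.759, 47 above 0.1). Alternatives were a replicate block for culture, another pseudocount, no filter, median-of-ratios scaling, the shallow library kept and each culture left out. All members are named, and of each list at most the 4 largest changes past the threshold in a comparison; a few genes that this rule picks are not reported here. Members and lists were chosen with earlier results of these data known. The labels name 3 treatments. Promoter sequences, matched by gene symbol, and gene positions, matched by Entrez ID, are from RefSeq (GRCm38.p6).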

Additional observations from a re-analysis of the deposited data

Results flagged for a closer look

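A library stood apart from the other 3 of its group in 6 of 120 gene and group pairs checked (5%). Chance flags about 1 in 20 where libraries are independent. Duplicates of a culture are not, so the rates cannot be compared directly. Cldn3 held 185 RPKM in duplicate 1 of culture 2 of day 1 atRA, against 156 to 159 RPKM in the others, and 394 RPKM in duplicate 2 of culture 2 of day 4 atRA, against 338 to 345 RPKM. Cldn8 held 0.233 RPKM in duplicate 1 of culture 2 of day 4 DMSO, against 0.523 to 0.59 RPKM, and Ocln held 36.7 RPKM in duplicate 1 of culture 2 of day 1 RXRi, against 38.2 to 38.4 RPKM. Cldn1 was above 0 in a single library of day 3 DMSO (0.0138 RPKM) and a single library of day 3 atRA (0.0154 RPKM), on 1 read each.

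The effect of RXRi against DMSO differed between day 5 and day 1 for Cldn15 by -4.67 log2 units and for Cldn3 by -1.04 (limma interaction, adjusted p = 4.2e-11 and 0.00164). These 2 of 9 members stand where 41.3% of all genes passed, so the members are no larger a share.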

How the results depend on the processing

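None of the values changed sign past the threshold under any alternative. Of 77 calls among 252 pairs of a tested member and a comparison, 12 were lost with the shallow library kept, 1 with a pseudocount of 0.1, 9 without the filter and 4 with median-of-ratios scaling; 1, 3, 0 and 7 were gained. Culture as a replicate block ended no call and added 6, of which Cldn8 in DMSO on day 3 against day 1 (0.59, limma, adjusted p = 0.0495) is not named above; it changed no other call. The causes were not tested. Depth limits Cldn1, Cldn8 and Cldn15 under RXRi, which rest on few reads. A planned count model on reads recovered from the RPKM is not reported, since the deposited values are not counts.

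Counts of members called moved as follows; without the filter they are over 10 members, Cldn1 included, and otherwise over 9. For DMSO, day 1 against day 0 gave 5 and 3 without the filter; day 3 against day 1 gave 1, 0 with the shallow library kept, 2 without the filter (Cldn1, at 0 to 10 reads per library, then enters the test and passes) and 2 with the block; day 5 against day 4 gave 1, and 0 with the shallow library kept, with pseudocount 0.1 or without the filter; day 5 against day 0 gave 4, and 7 with scaling. For atRA against DMSO, all comparisons together and the mean of the days gave 1, and 0 without the filter or with scaling. For RXRi against DMSO, day 1 gave 3, and 2 with the shallow library kept, and day 3 gave 5, and 3 with that library kept or without the filter. RXRi day steps together gave 5, and 3 with that library kept; of these day 4 against day 3 gave 3, 1 with it kept and 2 without the filter.

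With 1 culture left out, a lone remaining culture being assumed to vary like the other groups, the count ranged over 3 to 5 for DMSO day 1 against day 0, 3 to 6 for day 4 against day 3 and 0 to 1 for day 5 against day 4. For atRA against DMSO it ranged over 0 to 6 in all, 0 to 1 on day 4, 0 to 2 on day 5 and 0 to 4 for the mean. For RXRi against DMSO it ranged over 1 to 3 on day 1, 3 to 5 on day 3, 4 to 6 on day 4 and 4 to 6 on day 5. For atRA against RXRi it ranged over 1 to 4 on day 1 and 4 to 8 on day 5. For day steps it ranged over 4 to 11 in atRA (3 to 6 for day 4 against day 3, 0 to 4 for day 5 against day 4) and 3 to 7 in RXRi (2 to 3 for day 3 against day 1, 1 to 4 for day 4 against day 3). For the change of effect between day 5 and day 1 it ranged over 2 to 5 in all, 0 to 2 for atRA and 2 to 4 for RXRi. The highest counts for atRA came without a day 5 atRA culture: without culture 2, Cldn2 (0.82), Cldn8 (1.00), Cldn23 (1.02) and Ocln (1.00) passed in atRA for day 5 against day 4, and without culture 1, Cldn4 (-0.89), Cldn7 (-0.12) and Ocln (-0.30) passed for the mean of atRA against DMSO.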
